A study of Saccharomyces cerevisiae S288C with 24 samples.

Results

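The nuclear genes for the subunits of oxidative phosphorylation were followed through 8 culture conditions of the yeast *Saccharomyces cerevisiae*. The set holds 40 genes of the 6905 loci used. They are 3 NADH dehydrogenases, the 4 subunits of succinate dehydrogenase (complex II), 9 subunits of the cytochrome bc1 complex (complex III), the 2 cytochromes c, 9 subunits of cytochrome c oxidase (complex IV) and 13 subunits of ATP synthase. A gene was taken into the set by its name alone, as the locus that carries this name in the table of values, and no expression value entered the rule. The set was nevertheless chosen with earlier results of these data known. All 40 were found, and all 40 were among the 6346 loci tested.

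Yeast mitochondria pass electrons from NADH and succinate to ubiquinone, then through complex III and cytochrome c to complex IV, which reduces oxygen. *S. cerevisiae* has no proton-pumping complex I. Its place is taken by the single-chain enzymes Ndi1, which faces the matrix, and Nde1 and Nde2, which face the intermembrane space. Complexes III and IV build up a proton gradient across the inner membrane, and ATP synthase uses it to make ATP. Most subunits are nuclear encoded, and a few core subunits are encoded by the mitochondrial genome. During growth on glucose these nuclear genes are held low. After glucose is used up many of them are activated through the Hap2/3/4/5 complex, which binds CCAAT boxes and whose limiting subunit is Hap4. Heme and oxygen act through the activator Hap1 and the hypoxic repressor Rox1. Cyc1 and Cyc7, and likewise Cox5a and Cox5b, are alternative forms of the same protein. Cyc1 and Cox5a are the forms of aerobic respiration, and Cyc7 and Cox5b gain weight when oxygen or heme is low.

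The samples were cultures of BY4741, a laboratory haploid that lacks *HIS3*, *LEU2*, *MET17* and *URA3* (WT), and of Sc12, the strain of the yeast deletion collection that lacks *TRP5* in the same background and so has no tryptophan synthase. All 8 groups were grown for 24 h in the rich glucose medium YPD. They were Sc12 + IB + Trp, with 1.2% isobutanol (IB) and 200 µg/ml tryptophan (Trp), Sc12 + IB, with isobutanol alone, Sc12 + Trp, with tryptophan alone, and Sc12, with neither. WT + IB + Trp, WT + IB, WT + Trp and WT had the same additions. Each group has 3 libraries, 24 in all. Sc12 is a single deletion clone. The study measured cell density when RNA was taken. It reports that growth under isobutanol was impaired more in Sc12 than in WT, and that added tryptophan restored it. The groups were thus not matched for growth. Changes that go with growth stage cannot be told apart here from those of strain, isobutanol or tryptophan. Whether replicates came from separate cultures is not stated, so p-values here measure only the spread between these samples.

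Depth was 5218712 to 14580261 fragments per library. *TRP5* had 0 to 11 fragments in the Sc12 libraries, against 2921 to 8481 in the WT libraries. Levels are CPM, the fragments of a gene per 1000000 fragments, after TMM scaling, which sets the libraries to a common level over most genes. The TMM factor was 0.588 to 0.687 in Sc12 + IB and 0.97 to 1.144 in the other 21 libraries. Scaling by library totals in its place moved the median change over all loci in Sc12 + IB against Sc12 to -0.84, where TMM gave -0.02 (log2). Changes that involve Sc12 + IB are therefore relative to the bulk of the other genes. Replicate 2 of WT + IB and replicate 2 of WT + IB + Trp stood apart from the other libraries of their groups, with lower subunit sums, less *HAP4* and more *ANB1*, a hypoxic gene. Their deviations from the group means correlated with r = 0.603 over loci. Sc12 replicate 3 and Sc12 + Trp replicate 1 are marked in the labels as make-up data. In bulk RNA, fewer cells that express a gene and less of its RNA per cell cannot be told apart.

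The upstream regions of 5 members are shown because these genes carry much of what follows. They are the isoform pair *COX5A* (YNL052W) and *COX5B* (YIL111W), and *ATP5* (YDR298C), *COX6* (YHR051W) and *ATP17* (YDR377W), which after *CYC1* (YJR048W) had the largest positive changes when tryptophan was added to isobutanol-treated Sc12. Each is the run of 200 bases from 300 to 101 bases before the start codon, read 5′ to 3′ on the strand of the gene, from the RefSeq sequence of the sacCer3 build. Capitals mark CCAAT, the box bound by the Hap2/3/4/5 complex, and ATTGTTC, the core of the Rox1 site. On the other strand these read ATTGG and GAACAAT. The regions are chrXIV:531425-531624 (+ strand) for *COX5A*, chrIX:154922-155121 (+ strand) for *COX5B*, chrIV:1058915-1059114 (- strand) for *ATP5*, chrVIII:209405-209604 (+ strand) for *COX6* and chrIV:1228311-1228510 (+ strand) for *ATP17*.
COX5A: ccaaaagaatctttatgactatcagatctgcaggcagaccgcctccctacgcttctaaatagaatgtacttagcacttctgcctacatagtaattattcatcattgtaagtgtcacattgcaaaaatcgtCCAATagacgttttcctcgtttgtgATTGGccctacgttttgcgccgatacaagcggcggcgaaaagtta
COX5B: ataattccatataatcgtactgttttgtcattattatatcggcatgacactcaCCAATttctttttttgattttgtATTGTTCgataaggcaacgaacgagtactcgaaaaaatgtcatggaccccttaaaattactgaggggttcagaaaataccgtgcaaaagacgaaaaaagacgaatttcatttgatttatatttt
ATP5: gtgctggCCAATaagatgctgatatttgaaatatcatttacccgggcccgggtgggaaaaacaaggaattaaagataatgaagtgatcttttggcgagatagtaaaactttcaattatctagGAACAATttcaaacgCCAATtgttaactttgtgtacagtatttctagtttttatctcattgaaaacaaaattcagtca
COX6: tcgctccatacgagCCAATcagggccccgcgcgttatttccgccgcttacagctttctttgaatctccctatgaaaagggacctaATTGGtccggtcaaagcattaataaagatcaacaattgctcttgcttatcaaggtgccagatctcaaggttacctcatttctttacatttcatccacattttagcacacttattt
ATP17: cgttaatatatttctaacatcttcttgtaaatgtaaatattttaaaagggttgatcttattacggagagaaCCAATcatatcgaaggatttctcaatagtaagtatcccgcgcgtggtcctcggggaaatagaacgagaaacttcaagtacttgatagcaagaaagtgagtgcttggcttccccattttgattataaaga

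CCAAT stood in this window, on either strand, in 34 of the 40 members and in 30.7% of the windows of 6007 genes of the genome. The longer form ACCAAT, which includes CCAAT, stood in 19 members (47.5%) and in 10.5% of all genes. ATTGTTC stood in 3 members (7.5%), *QCR2* (YPR191W), *COX5B* and *ATP5*, and in 4.88% of all genes. The 6 members without CCAAT in the window were *NDE2* (YDL085W), *COR1* (YBL045C), *CYT1* (YOR065W), *CYC1*, *CYC7* (YEL039C) and *COX4* (YGL187C). A match is a string of letters and not a measured binding site, and bases outside the window were not searched.

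Summed over the 40 genes, the mRNAs reached 14973, 12096 and 14250 CPM in Sc12 + IB + Trp, 9531, 9541 and 8843 CPM in Sc12 + IB and 16728, 13807 and 15075 CPM in WT + IB. Without isobutanol they were 10469, 10120 and 10029 CPM in Sc12, against 13478, 13954 and 13728 CPM in WT. All 3 sums of Sc12 + IB lay below those of the other 21 libraries. As a share of all fragments, with no scaling, the 40 genes took 0.655%, 0.621% and 0.52% in Sc12 + IB, and 1.14% to 1.82% in the other libraries.

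**Figure D1:**
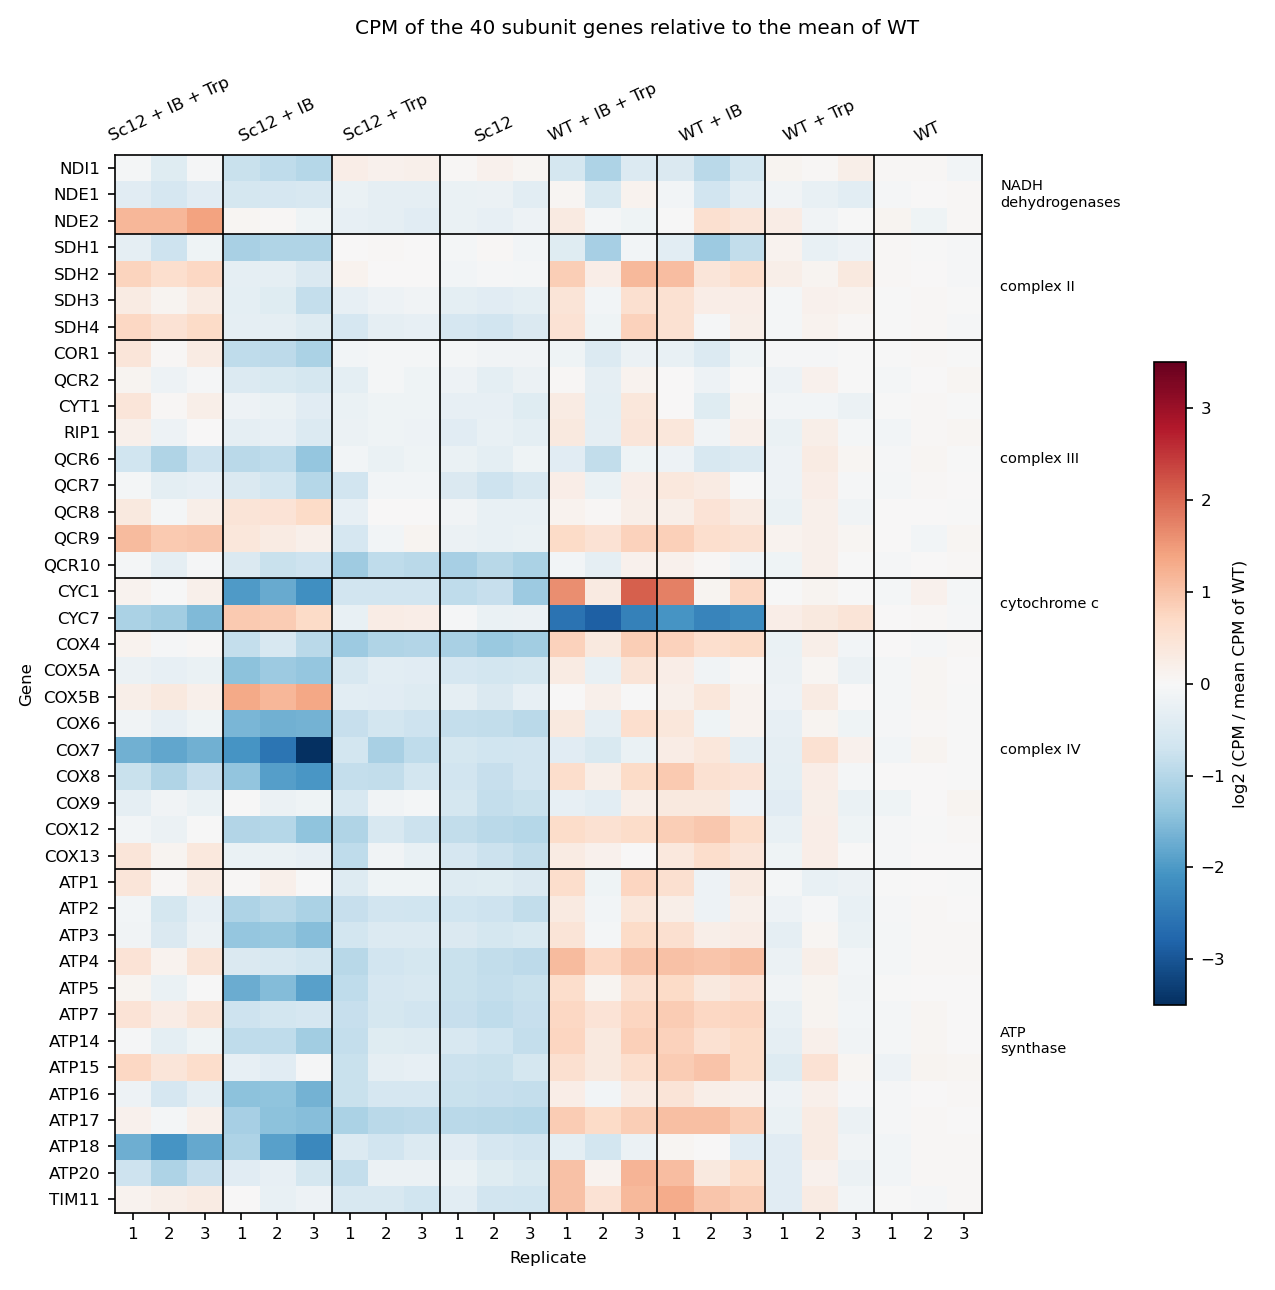
Each row is a subunit gene, ordered by complex, and each column a library, grouped by condition. Colour gives the log2 ratio of the CPM (TMM scaled) in that library to the mean CPM of WT. The columns of Sc12 + IB are mostly on the low side, with *CYC7*, *COX5B* and *QCR8* as the clearest exceptions, and *CYC7* is low in all 6 isobutanol libraries of WT.

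The test was the quasi-likelihood test of edgeR, with Benjamini-Hochberg adjustment over 6346 loci. A gene is called a DEG when its log2 fold change exceeds 1 in size and its adjusted p is below 0.05. Rose and fell are used below for an adjusted p under 0.05, whatever the fold. Between the strains under isobutanol, in Sc12 + IB against WT + IB, 20 members were DEGs lower and 2 higher, where 11.1% of all loci were DEGs lower and 16.1% higher. In all, 31 fell and 2 rose, beside 37.0% and 36.5% of all loci. The median log2 fold change of the 40 was -1.01, and that of all loci -0.02. With library totals these medians were -1.66 and -0.67, so the distance between them was -0.99 under both scalings. The libraries of Sc12 + IB lay wholly below those of WT + IB for 30 of the 40 genes and wholly above them for 2, where 37.4% and 36.8% of all loci did.

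Short loci in general were lower in this comparison too. Over all loci the median log2 fold change was -0.28 for coding lengths up to 300 bases and 0.08 above 1000 bases, and the members of these lengths had medians of -1.15 (n = 10) and -0.32 (n = 8). Between them, loci of 300 to 500 bases had -0.34 and members -1.4 (n = 13). From 500 to 1000 bases the medians were -0.19 and -1.11 (n = 9). The part of length in the result was not tested.

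Without isobutanol the difference between the strains was smaller and had the same sign in nearly the whole set. In Sc12 against WT, 39 of the 40 log2 fold changes were negative, with a median of -0.57, where that of all loci was -0.01. In all, 26 fell and 0 rose, beside 22.3% and 19.0% of all loci. With limma on log2(FPKM + 1) 3 fell, and DESeq2 and an unadjusted p under 0.05 in edgeR also gave 0 that rose. *COX4* and *QCR10* (YHR001W-A) were DEGs lower, where 1.53% of all loci were and 1.78% were DEGs higher. In Sc12 + Trp against WT + Trp the median was -0.40 and 22 fell, beside 21.1% of all loci that fell and 19.7% that rose, and 4 fell with limma. *COX4*, *COX7* (YMR256C) and *QCR10* were DEGs lower there, where 1.65% of all loci were and 1.56% were DEGs higher. Without WT + Trp replicate 2 none of these 3 kept the DEG call, with log2 fold changes of -0.94, -0.81 and -0.92. *QCR10* was at -0.92 without Sc12 + Trp replicate 1, and *COX7* at -0.93 without Sc12 + Trp replicate 2.

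Isobutanol was accompanied by different changes in the strains. In WT + IB against WT the median was 0.27, 21 members rose and 6 fell (34.8% and 34.6% of all loci), with 3 DEGs higher and 1 lower, where 11.8% and 8.89% of all loci were. In WT + IB + Trp against WT + Trp the median was 0.28, 20 rose and 5 fell (35.0% and 33.6% of all loci), with 1 DEG higher and 1 lower, where 11.2% and 8.56% of all loci were. The median in Sc12 + IB against Sc12 was -0.17, 12 rose and 16 fell (36.4% and 37.1% of all loci), with 1 DEG higher and 4 lower, where 17.2% and 10.6% of all loci were. With library totals only 2 of these 12 had a positive sign, while all 16 of the others stayed negative. In Sc12 + IB + Trp against Sc12 + Trp the median was 0.41, 24 rose and 5 fell (35.3% and 34.1% of all loci), with 8 DEGs higher and 2 lower, where 9.93% and 8.02% of all loci were. Without the make-up libraries 5 members were DEGs higher in this last comparison.

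The difference between the strains in their response to isobutanol was tested with an interaction term. Without tryptophan the response was lower in Sc12 than in WT for 19 members and higher for 3 (31.5% and 31.7% of all loci), with 2 DEGs higher and 9 lower, where 16.0% and 9.27% of all loci were. The median of the difference was -0.40 over the members and -0.04 over all loci. With tryptophan present, 12 members had a higher response in Sc12 than in WT and 3 a lower one (30.8% and 31.5% of all loci), with 2 DEGs higher and 1 lower, where 11.1% and 11.6% of all loci were, and a median of 0.11.

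Of the 4 comparisons that ask for the effect of tryptophan, that of Sc12 + IB + Trp against Sc12 + IB had members past the adjusted p. There 30 members rose and 3 fell, beside 36.1% and 34.5% of all loci, with 12 DEGs higher and 2 lower, where 9.39% and 14.6% of all loci were. The median was 0.73, where that of all loci was 0.02, a distance of 0.71, and with library totals the distance was 0.70. In WT + IB + Trp against WT + IB, Sc12 + Trp against Sc12 and WT + Trp against WT, 0 members passed the adjusted p of edgeR, DESeq2 or limma. Of all loci at most 0.0158%, 0.347% and 0.0473% passed it in a direction in these comparisons, and in Sc12 + Trp against Sc12 0.11% were higher. The DEG shares of all loci were 0.0% in either direction in WT + IB + Trp against WT + IB, 0.0315% higher and 0.347% lower in Sc12 + Trp against Sc12, and 0.0158% higher and 0.0% lower in WT + Trp against WT. At an unadjusted p under 0.05 in edgeR the counts were 1 higher and 5 lower in WT + IB + Trp against WT + IB, 3 higher and 0 lower in Sc12 + Trp against Sc12, and 1 higher and 0 lower in WT + Trp against WT.

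In the interaction term for tryptophan under isobutanol, 27 members had a higher effect in Sc12 than in WT and 2 a lower one (30.3% and 31.5% of all loci), with 15 DEGs higher and 1 lower, where 9.94% and 15.5% of all loci were. The comparisons Sc12 + IB + Trp against Sc12 + IB and Sc12 + IB against WT + IB share the libraries of Sc12 + IB, so a gene with low values in these libraries moves in both.

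**Figure D2:**
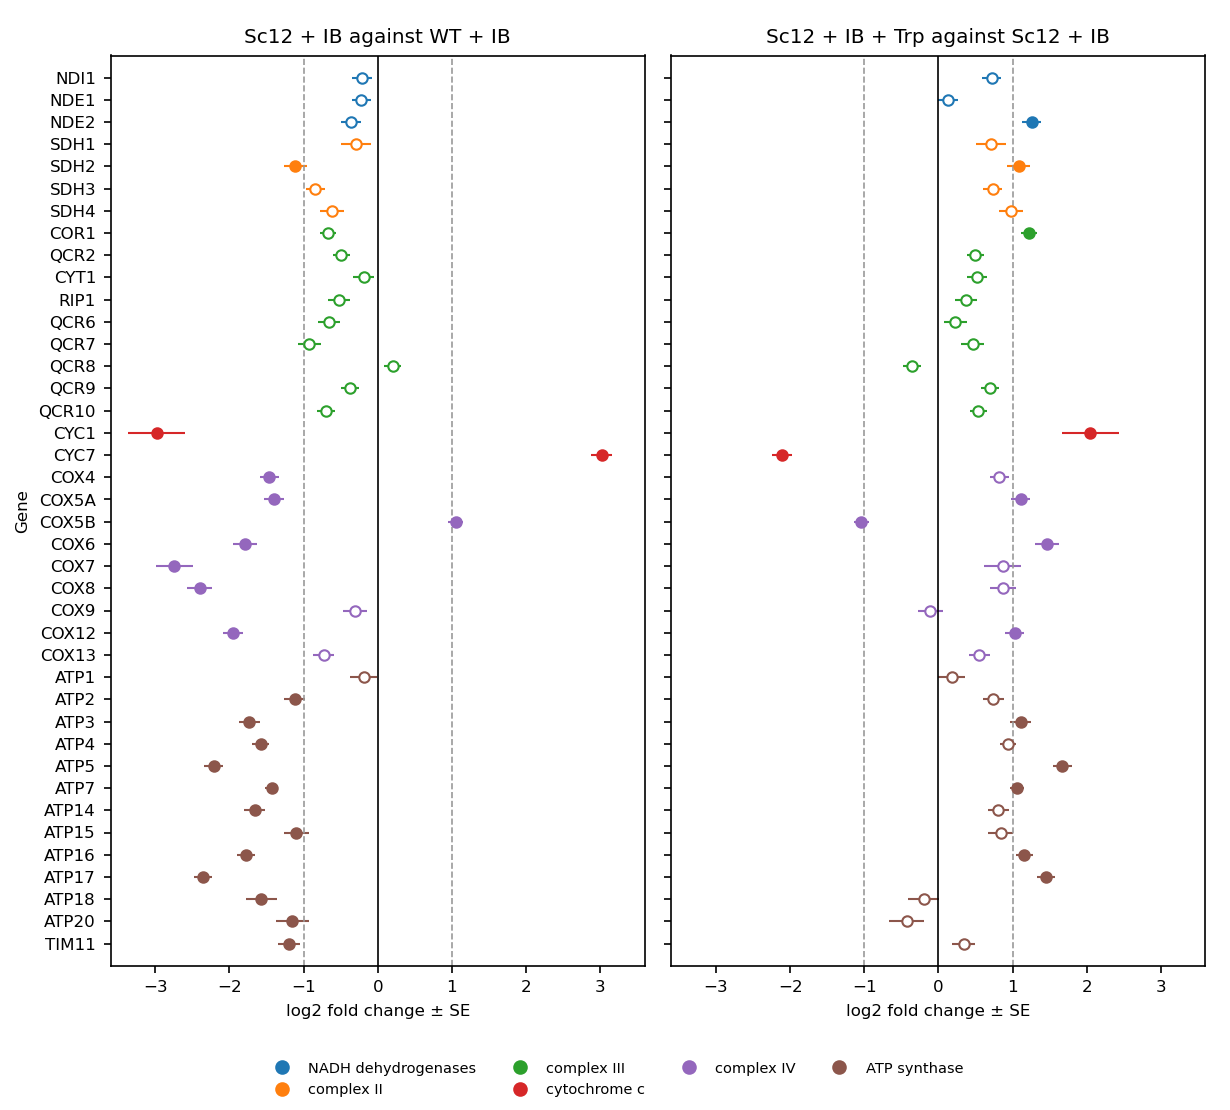
Log2 fold change ± SE of each member in Sc12 + IB against WT + IB (left) and in Sc12 + IB + Trp against Sc12 + IB (right), with filled points for DEGs, open points for other genes and dashed lines at a log2 fold change of 1 in size. In the left panel 12 of 13 ATP synthase genes are filled and lower, and in the right panel *CYC7* and *COX5B* are the 2 DEGs on the negative side.

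Among the NADH dehydrogenases all 3 log2 fold changes were negative in Sc12 + IB against WT + IB, none was a DEG, and 1 fell, beside 37.0% of all loci. All 3 were positive in Sc12 + IB + Trp against Sc12 + IB, where 2 rose, beside 36.1% of all loci. *NDI1* (YML120C), the matrix-facing enzyme, had 297, 280 and 256 CPM in Sc12 + IB, against 529, 566 and 544 CPM in Sc12, and 360, 268 and 332 CPM in WT + IB, against 532, 526 and 485 CPM in WT. The libraries with isobutanol lay below those without it in both strains. *NDI1* fell in both comparisons, with log2 fold changes of -0.98 and -0.68, and did not pass the adjusted p in Sc12 + IB against WT + IB (-0.21). With tryptophan it had 489, 382 and 501 CPM in Sc12 + IB + Trp, without overlap, and rose against Sc12 + IB, with 0.72.

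*NDE2*, an external enzyme that oxidizes cytosolic NADH, was high in a single group. It had 515, 514 and 614 CPM in Sc12 + IB + Trp, against 242, 236 and 208 CPM in Sc12 + IB and 190, 183 and 175 CPM in Sc12 + Trp. Every library of Sc12 + IB + Trp lay above the highest value of the other 7 groups, 341 CPM in WT + IB. The log2 fold change was 1.59 ± 0.13 (SE) against Sc12 + Trp, with adjusted p = 5.81e-10 in edgeR, and 1.26 ± 0.13 against Sc12 + IB, with adjusted p = 1.44e-08. Its paralog *NDE1* (YMR145C) had 321, 283 and 323 CPM in Sc12 + IB + Trp, against 277, 280 and 289 CPM in Sc12 + IB, and did not pass (log2 fold change 0.13). The ratio of *NDE2* to *NDE1*, in CPM per kilobase of coding sequence, was 1.82 ± 0.156 in Sc12 + IB + Trp, 0.835 ± 0.0845 in Sc12 + IB and 0.556 ± 0.0567 in WT (mean ± SD, n = 3 each).

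Complex II links the citric acid cycle to the chain. Its 4 genes all had negative values in Sc12 + IB against WT + IB, where 3 fell, beside 37.0% of all loci. All 4 rose in Sc12 + IB + Trp against Sc12 + IB, beside 36.1% of all loci. *SDH1* and *SDH2* differed in sign with isobutanol in WT. *SDH1* (YKL148C), the flavoprotein subunit, had 385, 414 and 409 CPM in Sc12 + IB, against 816, 873 and 789 CPM in Sc12. These libraries did not overlap, and *SDH1* was a DEG lower with a log2 fold change of -1.04 ± 0.20 (adjusted p = 8.70e-05, edgeR), which was -0.99 without Sc12 replicate 2. In WT + IB against WT *SDH1* fell, with a log2 fold change of -0.79, and *SDH2* (YLL041C), the iron-sulfur subunit, rose, with 0.74.

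*SDH2* had 187, 187 and 165 CPM in Sc12 + IB, against 495, 314 and 356 CPM in WT + IB, with no overlap, and was a DEG lower (log2 fold change -1.11, or -0.89 without WT + IB replicate 1). With tryptophan it had 401, 352 and 383 CPM in Sc12 + IB + Trp, without overlap, and was a DEG higher than in Sc12 + IB (1.08). The membrane anchors *SDH3* (YKL141W) and *SDH4* (YDR178W) fell in Sc12 + IB against WT + IB, with log2 fold changes of -0.84 and -0.62. Both rose in Sc12 + IB + Trp against Sc12 + IB, with 0.73 and 0.98, as did *SDH1*, with 0.71.

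Complex III held smaller differences. Of its 9 genes 7 fell in Sc12 + IB against WT + IB, beside 37.0% of all loci. The median log2 fold change was -0.52, and the most negative value was that of *QCR7* (YDR529C) (-0.92), a small subunit. The largest change with tryptophan was that of *COR1*, a core subunit, with 1517, 1173 and 1397 CPM in Sc12 + IB + Trp, against 619, 601 and 528 CPM in Sc12 + IB. Its log2 fold change was 1.22 ± 0.11 (adjusted p = 8.37e-10, edgeR), and each library of Sc12 + IB + Trp lay above every library of the other groups. The Rieske iron-sulfur protein *RIP1* (YEL024W), cytochrome c1 (*CYT1*) and the core subunit *QCR2* rose in the same comparison, with 0.37, 0.52 and 0.50.

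*QCR6* (YFR033C), the acidic hinge subunit, fell in all 4 comparisons of isobutanol with its absence, with log2 fold changes of -0.66 in Sc12 + IB + Trp against Sc12 + Trp, -0.81 in Sc12 + IB against Sc12, -0.51 in WT + IB + Trp against WT + Trp and -0.39 in WT + IB against WT. *QCR8* (YJL166W), another small subunit, went its own way. It had 597, 448 and 542 CPM in Sc12 + IB + Trp, 642, 648 and 742 CPM in Sc12 + IB and 428, 391 and 393 CPM in Sc12. It rose in Sc12 + IB against Sc12 (log2 fold change 0.74) and fell in Sc12 + IB + Trp against Sc12 + IB (-0.36), and with library totals these values were -0.08 and 0.39, with the signs turned. *QCR10*, an accessory subunit, was a DEG lower in Sc12 without isobutanol, with 52.8, 60.6 and 54.9 CPM in Sc12, against 115, 120 and 121 CPM in WT (log2 fold change -1.08 ± 0.12, adjusted p = 3.36e-07, edgeR). With library totals its value was -0.97. *QCR9* (YGR183C) was a DEG higher in Sc12 + IB + Trp against Sc12 + Trp (1.15), and its value was 0.98 without Sc12 + Trp replicate 1. *SDH4* and *ATP15* (YPL271W) lost the same call without that library, at 0.93 and 0.89, and without Sc12 + IB + Trp replicate 1, at 0.97 and 0.96.

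The cytochromes c moved in opposite directions. *CYC1*, the main aerobic form, had 10.6, 12.4 and 9.5 CPM in Sc12 + IB, against 142, 44.6 and 68.7 CPM in WT + IB. *CYC7*, the other form, had 450, 446 and 379 CPM in Sc12 + IB, against 57, 48.4 and 51.8 CPM in WT + IB. The libraries overlapped for neither gene. The log2 fold changes were -2.98 ± 0.38 for *CYC1* (adjusted p = 2.10e-07) and 3.02 ± 0.14 for *CYC7* (adjusted p = 3.31e-15, edgeR), the most negative and the most positive of the 40. With library totals they were -3.64 and 2.37.

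Both strains contributed to that distance. *CYC7* had 57, 48.4 and 51.8 CPM in WT + IB, against 241, 244 and 232 CPM in WT, and fell by 2.19 on the log2 scale (SE 0.13, adjusted p = 2.44e-12, edgeR). *CYC1* was a DEG higher there, with 1.03 ± 0.31 (adjusted p = 0.00558, edgeR), but the libraries of WT + IB overlapped with the 39.5, 46.3 and 39.5 CPM of WT. The *CYC1* call rests on WT + IB replicate 1, without which the value was 0.43, and it was 0.99 without WT replicate 1 and 0.99 without WT replicate 3. In Sc12 + IB against Sc12 the signs were the reverse, with 0.98 ± 0.13 for *CYC7* and -0.99 ± 0.40 for *CYC1*, both past the adjusted p and neither a DEG. With library totals the value of *CYC7* there was 0.16. The responses of the strains differed by 3.17 ± 0.19 for *CYC7* (adjusted p = 7.67e-13) and -2.03 ± 0.51 for *CYC1* (adjusted p = 0.00151, edgeR) in the interaction term, as Sc12 minus WT.

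With tryptophan the cytochromes c of Sc12 under isobutanol lay nearer to those of WT + IB and WT + IB + Trp. *CYC1* had 45.9, 41.7 and 46.9 CPM in Sc12 + IB + Trp, against 10.6, 12.4 and 9.5 CPM in Sc12 + IB. *CYC7* had 110, 103 and 82.2 CPM in Sc12 + IB + Trp, against 450, 446 and 379 CPM in Sc12 + IB. Neither gene overlapped. The log2 fold changes against Sc12 + IB were 2.05 ± 0.38 for *CYC1* (adjusted p = 5.13e-05) and -2.11 ± 0.13 for *CYC7* (adjusted p = 1.34e-12, edgeR). Sc12 + IB + Trp still differed from WT + IB + Trp, with *CYC1* lower (-1.42) and *CYC7* higher (1.30), both DEGs. Per kilobase of coding sequence the ratio of *CYC7* to *CYC1* was 2.13 ± 0.382 in Sc12 + IB + Trp, 38 ± 3.26 in Sc12 + IB, 9.34 ± 1.73 in Sc12 + Trp and 9.89 ± 1.61 in Sc12. It was 0.389 ± 0.198 in WT + IB + Trp, 0.72 ± 0.329 in WT + IB, 6.9 ± 0.62 in WT + Trp and 5.54 ± 0.409 in WT (mean ± SD, n = 3 each). The ratio is taken within a library and does not depend on the scaling.

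In complex IV, which reduces oxygen to water, 6 of 9 genes were DEGs lower in Sc12 + IB against WT + IB and 1 was higher. Of all loci 11.1% were lower and 16.1% higher. *COX7* and *COX8* (YLR395C), small membrane subunits, had the largest negative changes after *CYC1*. *COX7* had 24.1, 17.2 and 8.29 CPM in Sc12 + IB, against 120, 133 and 81.4 CPM in WT + IB (log2 fold change -2.74 ± 0.25, adjusted p = 7.10e-10, edgeR). *COX8* had 23.7, 16.3 and 15.1 CPM in Sc12 + IB, against 117, 89.2 and 86.4 CPM in WT + IB (-2.40 ± 0.17, adjusted p = 1.19e-11, edgeR). No library overlapped for either gene, and the lowest values rest on 55 fragments for *COX7* and 100 for *COX8*.

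Both were also DEGs lower in Sc12 + IB against Sc12, with -1.94 for *COX7* and -1.04 for *COX8*. The value of *COX8* in that comparison was -0.97 without Sc12 + IB replicate 2 and -0.94 without Sc12 + IB replicate 3. With tryptophan they were still DEGs lower in Sc12 + IB + Trp against WT + IB + Trp, with -1.34 for *COX7* and -1.39 for *COX8*.

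*COX6*, *COX12* (YLR038C), *COX4* and *COX5A* were the other 4 DEGs lower of complex IV. *COX6*, a matrix-side subunit, had 201, 179 and 197 CPM in Sc12 + IB + Trp, 71.7, 68 and 70.3 CPM in Sc12 + IB and 289, 198 and 238 CPM in WT + IB. The values of Sc12 + IB overlapped with neither group, and the log2 fold changes were -1.79 ± 0.16 in Sc12 + IB against WT + IB and 1.46 ± 0.16 in Sc12 + IB + Trp against Sc12 + IB (adjusted p = 1.71e-08, edgeR). *COX12*, on the intermembrane side, followed with -1.95 and 1.03, and the second value was 0.90 without Sc12 + IB replicate 3 and 0.98 without Sc12 + IB + Trp replicate 3.

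*COX4*, the zinc-binding subunit, was already low in Sc12 without isobutanol, with 61.7, 55.3 and 59 CPM in Sc12, against 136, 132 and 140 CPM in WT. The log2 fold change of -1.21 ± 0.13 (adjusted p = 1.73e-07, edgeR) was the most negative of the 40 in that comparison. *COX9* (YDL067C) and *COX13* (YGL191W), both small subunits, were not DEGs in any of the 12 comparisons of groups.

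The isoforms of subunit 5 separated in Sc12 + IB. *COX5A* had 65.6, 73.9 and 68.9 CPM in Sc12 + IB, against 118, 114 and 115 CPM in Sc12. *COX5B* had 549, 496 and 566 CPM in Sc12 + IB, against 178, 156 and 180 CPM in Sc12. The groups overlapped for neither gene. *COX5B* was the member that was a DEG higher in Sc12 + IB against Sc12, with 1.65 ± 0.10 (adjusted p = 1.38e-12, edgeR), or 0.82 with library totals, and *COX5A* fell by 0.74 on the log2 scale. Against WT + IB, with 247, 291 and 240 CPM, *COX5B* had 1.05 ± 0.10 and was a DEG higher, and this value was 1.00 without Sc12 + IB replicate 3 and 0.40 with library totals. The windows printed above hold 2 CCAAT boxes for *COX5A*, and 1 CCAAT and 1 ATTGTTC for *COX5B*.

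In WT + IB against WT *COX5B* rose with a log2 fold change of 0.24, and *COX5A* had 0.05. With tryptophan *COX5A* was a DEG higher (1.11) and *COX5B* a DEG lower (-1.04, or -0.29 with library totals) in Sc12 + IB + Trp against Sc12 + IB. Per kilobase of coding sequence, the ratio of *COX5B* to *COX5A* was 1.76 ± 0.175 in Sc12 + IB + Trp, 7.87 ± 0.935 in Sc12 + IB, 1.5 ± 0.107 in Sc12, 1.46 ± 0.318 in WT + IB and 1.26 ± 0.0171 in WT (mean ± SD, n = 3 each). The 3 libraries of Sc12 + IB, at 8.49, 6.79 and 8.33, stood apart from all others, of which the highest was 1.97 in Sc12 + IB + Trp.

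**Figure D3:**
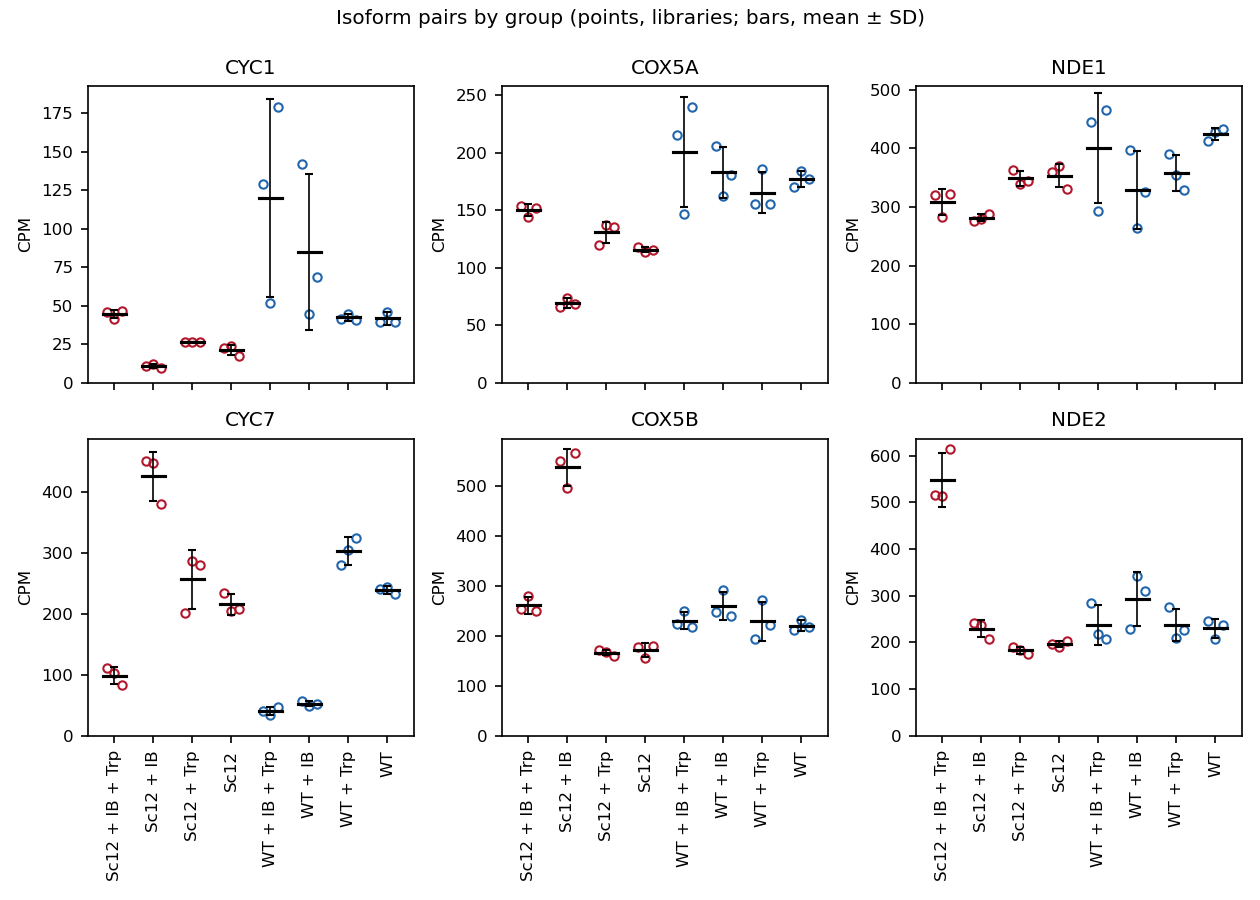
CPM (TMM scaled) of the 3 isoform pairs in the 8 groups, with libraries as points and mean ± SD as bars (n = 3 each). *CYC1* and *COX5A* have their lowest mean, and *CYC7* and *COX5B* their highest, in Sc12 + IB, and *NDE2* is highest in Sc12 + IB + Trp.

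ATP synthase had the largest share of DEGs of the complexes in Sc12 + IB against WT + IB. Of its 13 genes, 12 were DEGs lower, where 11.1% of all loci were. Their log2 fold changes ran from -1.10 to -2.36, with a median over the 13 of -1.57. The exception was *ATP1* (YBL099W), the alpha subunit of the catalytic head, with 755, 832 and 719 CPM in Sc12 + IB, against 1075, 642 and 910 CPM in WT + IB (log2 fold change -0.19). In the deposited positions the locus of *ATP1* and that of *YBL100C*, on the other strand, share 1702 bases. How much of this span is *YBL100C* itself was not examined. It is not stated that strand was used in the counting, so reads of these genes cannot be told apart where they overlap. *ATP2* (YJR121W), the beta subunit of the catalytic head, was a DEG, with 955, 1047 and 941 CPM in Sc12 + IB, against 2340, 1788 and 2287 CPM in WT + IB (-1.12 ± 0.14, adjusted p = 1.54e-07, edgeR). The central stalk followed, with -1.73 for *ATP3* (YBR039W) (gamma), -1.78 for *ATP16* (YDL004W) (delta) and -1.10 for *ATP15* (epsilon). The stator genes *ATP7* (YKL016C) and *ATP14* (YLR295C) had -1.43 and -1.66, the second at a locus that also holds *YLR294C*. *ATP20* (YPR020W) was at -1.15, and at -0.93 without WT + IB replicate 1.

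The largest negative changes of the complex were those of *ATP17*, the f subunit of the membrane part, and *ATP5*, the stator subunit that confers oligomycin sensitivity. *ATP17* had 52.7, 43.4 and 41.8 CPM in Sc12 + IB, against 246, 247 and 215 CPM in WT + IB (-2.36 ± 0.12, adjusted p = 2.52e-14, edgeR). *ATP5* had 86.9, 100 and 77.2 CPM in Sc12 + IB, against 456, 368 and 402 CPM in WT + IB (-2.21 ± 0.13, adjusted p = 3.68e-13, edgeR). The libraries overlapped for neither gene.

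Part of this distance was present without isobutanol. Summed over the 13 genes, Sc12 had 3267, 3139 and 3023 CPM, against 4936, 5213 and 5135 CPM in WT. Another part came with isobutanol in WT. In WT + IB against WT 10 of the 13 genes rose, beside 34.8% of all loci. *ATP4* (YPL078C), a stator subunit, had 709, 685 and 730 CPM in WT + IB, against 334, 361 and 359 CPM in WT (1.01 ± 0.11, adjusted p = 3.76e-08, edgeR). *TIM11* (YDR322C-A), the e subunit of ATP synthase dimers, had 173, 137 and 128 CPM in WT + IB, against 69.4, 68.5 and 72.7 CPM in WT (1.06 ± 0.15, adjusted p = 1.33e-06, edgeR). The libraries overlapped for neither gene, but both lie near the fold threshold: *ATP4* was at 0.97 without WT replicate 1 and 0.98 without WT + IB replicate 3, and *TIM11* at 0.91 without WT + IB replicate 1. Of the 13, 4 rose and 5 fell in Sc12 + IB against Sc12, near the 36.4% and 37.1% of all loci, and the median was -0.29. With library totals all 13 were negative there, with a median of -1.12, where that of all loci was -0.84.

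With tryptophan, 9 of the 13 rose in Sc12 + IB + Trp against Sc12 + IB, beside 36.1% of all loci. Of these 9, 5 were DEGs, where 9.39% of all loci were DEGs higher. *ATP5* had 308, 244 and 288 CPM in Sc12 + IB + Trp, against 86.9, 100 and 77.2 CPM in Sc12 + IB, with a log2 fold change of 1.67 ± 0.13 (adjusted p = 6.16e-11, edgeR). *ATP17* had 132, 112 and 134 CPM in Sc12 + IB + Trp, against 52.7, 43.4 and 41.8 CPM in Sc12 + IB (1.45 ± 0.12, adjusted p = 1.73e-10, edgeR). The libraries of Sc12 + IB lay below these for both genes. The effect of tryptophan was larger in Sc12 than in WT, by 1.72 ± 0.18 for *ATP5* and 1.65 ± 0.16 for *ATP17* in the interaction term.

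*ATP18* (YML081C-A) and *ATP20*, for the small membrane subunits i/j and g, did not pass the adjusted p with tryptophan under TMM scaling. *ATP18* had 36.7, 28.5 and 34.6 CPM in Sc12 + IB + Trp, against 56.5, 32.4 and 25.2 CPM in Sc12 + IB, with overlap (log2 fold change -0.20). *ATP20* had -0.43 in this comparison. With library totals both signs turned, to 0.52 for *ATP18*, which then passed (adjusted p = 0.0438, edgeR), and to 0.31 for *ATP20*. *ATP18* was a DEG lower in Sc12 + IB against Sc12 (-1.10, or -0.90 without Sc12 + IB replicate 3), and it averaged 33.3 ± 4.3 CPM in Sc12 + IB + Trp and 92.4 ± 14 CPM in WT + IB + Trp (SD, n = 3 each), a DEG lower without overlap (-1.47 ± 0.20, adjusted p = 8.90e-07, edgeR). *ATP20* had 35.9, 27.9 and 33.8 CPM in Sc12 + IB + Trp, against 120, 64.6 and 135 CPM in WT + IB + Trp, the most negative change of the 40 in that comparison (-1.71 ± 0.22, adjusted p = 2.94e-07, edgeR). In Sc12 + IB + Trp against WT + IB + Trp the median of the 40 was -0.28, 20 fell and 5 rose (37.1% and 35.7% of all loci), with 5 DEGs lower (12.2% of all loci) and 2 higher (11.8%). The 5 lower were *ATP18*, *ATP20*, *CYC1*, *COX7* and *COX8*, and the 2 higher were *CYC7* and *NDE2*.

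Levels between genes were compared per kilobase of coding sequence, with no correction for fragment length, and the order depends on this measure. In WT *QCR8* was highest, with 1640 ± 11.6 CPM per kilobase, followed by *ATP2* with 1324 ± 28.7 and *QCR7* with 961 ± 39.8. The lowest were *ATP20* with 170 ± 8.83, *NDE2* with 140 ± 12.2 and *CYC1* with 127 ± 12 (mean ± SD, n = 3 each), and *NDE2* and *CYC1* differed by about their spread. *CYC7* was at 699 ± 18.3. In Sc12 + IB *QCR8* was again highest, with 2376 ± 196, followed by *CYC7* with 1242 ± 117 and *COX5B* with 1178 ± 80.7, which differed by less than their spread, and *CYC1* was lowest with 32.9 ± 4.51. By mean deposited FPKM *QCR8* was also highest in WT and in Sc12 + IB, but the order after it differed. In WT *QCR8* had 6715 and *ATP15* 6677, while *QCR7* had 1570 and *ATP2* 1395. *NDE2* was lowest in WT with 113, and *CYC1* had 314. In Sc12 + IB *ATP15* with 3845 and *COX9* with 2864 lay above *CYC7* with 2701 and *COX5B* with 1799.

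Of the regulators, *HAP4* had its highest mean level, after TMM scaling, in the group where the summed subunit mRNAs were lowest. It had 218, 137 and 199 CPM in Sc12 + IB + Trp, 654, 707 and 769 CPM in Sc12 + IB and 309, 337 and 294 CPM in Sc12. The libraries of Sc12 + IB lay above both other groups without overlap. The log2 fold change was 1.18 ± 0.19 in Sc12 + IB against Sc12 (adjusted p = 8.75e-06) and -1.94 ± 0.20 in Sc12 + IB + Trp against Sc12 + IB (adjusted p = 6.82e-09, edgeR). With library totals the first value was 0.35, with adjusted p = 0.102, and the second -1.20. In WT + IB *HAP4* had 605, 360 and 520 CPM, against 450, 456 and 435 CPM in WT, and did not pass (0.15). Its value was 0.52 in Sc12 + IB against WT + IB (adjusted p = 0.0176, edgeR), and -0.14 with library totals.

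*ROX1*, the repressor of hypoxic genes, had 281, 319 and 276 CPM in Sc12 + IB + Trp, 402, 396 and 443 CPM in Sc12 + IB and 154, 186 and 185 CPM in Sc12. It was a DEG higher in Sc12 + IB against Sc12 without overlap (1.24 ± 0.10, adjusted p = 8.97e-11, edgeR), with 0.42 under library totals. In Sc12 + IB + Trp against Sc12 + IB its value was -0.50, or 0.25 with library totals, so that the sign turned. *HAP1*, the heme-responsive activator, had 462, 376 and 434 CPM in Sc12 + IB + Trp, against 948, 944 and 980 CPM in Sc12 + IB, and was a DEG lower (-1.18 ± 0.11, adjusted p = 9.62e-10, edgeR), with -0.43 under library totals. These are RNA levels, and whether the Hap1 protein was active in these strains was not tested. *ANB1*, a hypoxic gene for translation factor eIF5A, had 24.5, 26 and 23.2 CPM in Sc12 + IB, against 77.6, 208 and 146 CPM in WT + IB, a log2 fold change of -2.55. It was chosen after its values were seen, and the list of 6 hypoxic genes it belongs to went both ways, with 1 DEG higher and 2 lower in this comparison and a median of -0.13.

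Over the 15 regulators listed, 6 were DEGs higher and 0 lower in Sc12 + IB against WT + IB, where 16.1% and 11.1% of all loci were, with the largest values for *MIG2*, a glucose repressor (2.75), and *ROX1* (1.74). The median was 0.54. With library totals 3 were DEGs higher and 1 lower, *MIG2* and *ROX1* had 2.09 and 1.09, and the median was -0.11, where that of all loci was -0.67. In Sc12 + IB + Trp against Sc12 + IB, 1 was a DEG higher and 4 were lower, where 9.39% and 14.6% of all loci were, led by *MIG2* (-2.12) and *HAP4*. The higher gene was *HAP3*, a subunit of the CCAAT-binding complex (1.20).

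**Figure D4:**
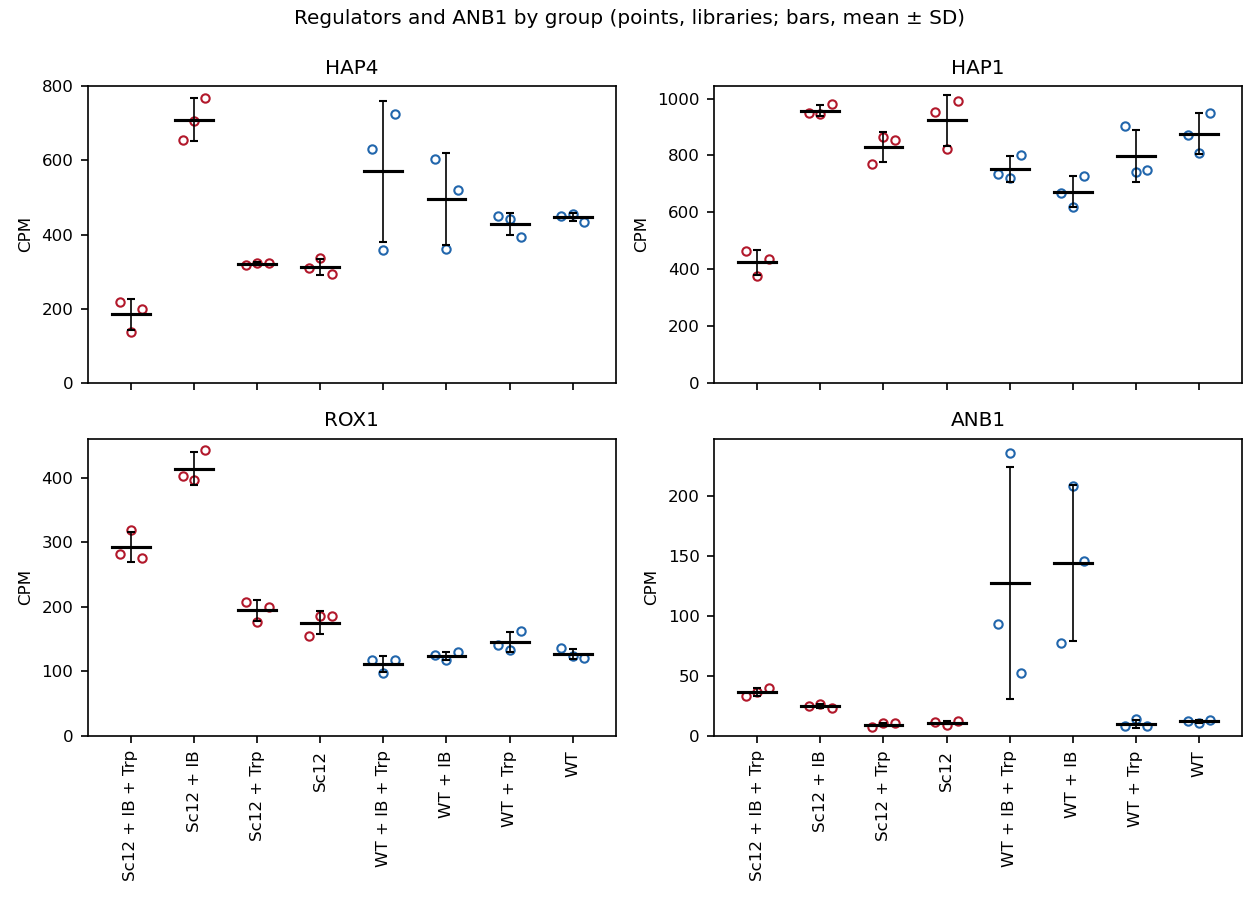
CPM (TMM scaled) of *HAP4*, *HAP1*, *ROX1* and *ANB1* in the 8 groups, with libraries as points and mean ± SD as bars (n = 3 each). *HAP4* and *ROX1* have their highest means in Sc12 + IB, although with library totals *HAP4* there is not above WT + IB. *HAP1* and *HAP4* have their lowest means in Sc12 + IB + Trp, and *ANB1* is highest in the isobutanol libraries of WT.

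Of 7 subunits encoded in the mitochondrial genome 5 were tested, all but *COX1* with low counts. In Sc12 + IB + Trp against Sc12 + IB all 5 were DEGs higher, where 9.39% of all loci were, with a median of 1.98. A rise was not particular to added tryptophan. Of the 5, 80% were DEGs higher in WT + IB against WT, where 11.8% of all loci were. The share was 100% in Sc12 + IB + Trp against Sc12 + Trp (9.93% of all loci) and 60% in Sc12 against WT (1.78%). In Sc12 + IB against Sc12 it was 0.0% (17.2% of all loci). *COX1*, the catalytic core of complex IV, had 61.1, 139 and 108 CPM in Sc12 + IB + Trp, against 20.4, 23.3 and 27.6 CPM in Sc12 + IB. Its locus also carries other gene names of the mitochondrial genome, so these values are not those of *COX1* alone. The study names TruSeq RNA LT kits for the libraries. How evenly these captured mitochondrial RNA was not tested, so these values may not follow the levels of mitochondrial transcripts.

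Factors that assemble or serve the chain were counted in the same way. In Sc12 + IB against WT + IB, 8 of 25 complex IV assembly factors were DEGs lower and 1 was higher, where 11.1% and 16.1% of all loci were, with the largest changes in *COA1* (-1.98) and *CMC2* (-1.80). The higher gene was *COX10*, the farnesyl transferase of heme A synthesis (1.77). Of 6 ATP synthase assembly factors 1 was a DEG lower, *ATP11*, a chaperone of the beta subunit (-1.83). Of 11 genes of ubiquinone synthesis 2 were lower and 1 was higher, with the largest values for *COQ11* (1.92) and *COQ5* (-1.06). Of 66 mitochondrial ribosomal protein genes, 24 were DEGs lower and 1 was higher, with a median of -0.86, where that of all loci was -0.02. Of 8 heme synthesis genes 1 was lower, *HEM14* (-1.25).

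In Sc12 + IB + Trp against Sc12 + IB, 3 of 25 complex IV assembly factors (12%) were DEGs higher and 1 was lower, near or below the 9.39% and 14.6% of all loci, with the largest changes in *COX10* (-1.70) and *COX20* (1.44). Of the 66 mitochondrial ribosomal protein genes 8 were higher (12.1%) and 2 lower, again near or below these shares, with a median of 0.32. With library totals, where the median of all loci was 0.77, 14 of the assembly factors and 36 of the ribosomal protein genes were DEGs higher. Of 7 carriers and porins *PET9*, the main ADP/ATP carrier, was a DEG higher, with 1366, 1540 and 1333 CPM in Sc12 + IB + Trp, against 569, 548 and 483 CPM in Sc12 + IB (1.40 ± 0.13, adjusted p = 2.53e-09, edgeR). *AAC3*, its hypoxic paralog, was a DEG lower (-1.45). Of 6 hypoxic genes *HEM13*, of heme synthesis, and *AAC3* were DEGs lower, with -1.54 for *HEM13*, and with library totals 0 of these 6 were.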

How the data were processed

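A total of 24 RNA-seq libraries of yeast were analysed. Per the labels and the study's methods, the authors demultiplexed reads with bcl2fastq 2.18, trimmed them with Trimmomatic 0.39, aligned them to sacCer3 with TopHat2 2.1.1 and quantified loci with Cufflinks 2.2.1; the annotation and the use of strand are not given in the sources used here. The deposited table gives an estimated count of fragments and an FPKM for each locus and library, and a text column with locus names. Of the fragment values 98.83% were within 0.001 of a whole number, and all were rounded. Columns with the authors' own comparisons (fold changes, p-values and q-values) were not used. Of 6929 loci, 24 with a failed estimate were left out.

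A mean FPKM of 1 or more was asked of a locus, and 6346 loci entered edgeR 4.0.16 (R 4.3.3), with TMM scaling, a fit of 8 group means over 24 libraries (16 residual degrees of freedom, biological coefficient of variation 10.4%), the quasi-likelihood F test and Benjamini-Hochberg adjustment over all loci tested; the procedure was tested on simulated data. The threshold was an adjusted p of 0.05, with a log2 fold change of 1 for DEGs. Alternatives were library totals, no filter, DESeq2 1.42.0, limma 3.58.1 on log2(FPKM + 1), only the groups compared, the replicate number as a block, each library left out, and the make-up libraries left out. One more, without replicate 2 of WT + IB and of WT + IB + Trp, was chosen after seeing the data. Tables and plots were made with Python 3.11.15, pandas 2.3.3, numpy 2.4.6 and matplotlib 3.10.9.

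The members and the gene lists were chosen with earlier results of these data known. Any of the 40 members could be named. Full values were given for the 3 most positive and the 3 most negative DEGs of a comparison and for the isoform pairs, and other lists are given by counts and the 2 DEGs of largest change, with *HAP4*, *HAP1* and *ROX1* always. *HAP3*, *ANB1* and the members singled out for a call lost without 1 library were named after their values were seen.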

Additional observations from a re-analysis of the deposited data

Results flagged for a closer look

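A member was singled out here where the difference between the strains passed the interaction test of edgeR as a DEG, that is with an adjusted p under 0.05 and a size above 1 on the log2 scale. All values are Sc12 minus WT, with 3 libraries in each of the 4 groups that enter a term.

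For the response to isobutanol without tryptophan, the response was lower in Sc12 by -1.05 for *SDH2*, -2.03 for *CYC1*, -2.08 for *COX7*, -1.69 for *COX8*, -1.02 for *COX12*, -1.18 for *ATP3*, -1.41 for *ATP5*, -1.38 for *ATP17* and -1.03 for *ATP18*, and higher by 3.17 for *CYC7* and 1.41 for *COX5B*. Complex IV and ATP synthase supply most of the lower genes, and the pair of higher genes are the alternative forms *CYC7* and *COX5B*. With library totals the difference for *COX5B* was 0.65. Some calls near the fold threshold were lost when 1 library was left out. *SDH2* was at -0.83 without WT + IB replicate 1. *COX12* was at -1, -0.94, -0.98 and -0.92 without WT + IB replicate 1, WT + IB replicate 2, Sc12 replicate 1 and Sc12 + IB replicate 3, in this order. *ATP18* was at -0.98, -0.92, -0.96, -0.95, -0.94 and -0.83 without WT replicate 1, WT + IB replicate 1, WT + IB replicate 2, Sc12 replicate 1, Sc12 + IB replicate 2 and Sc12 + IB replicate 3.

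For the response to isobutanol with tryptophan present, the difference was 1.59 for *NDE2* and 1.54 for *CYC7*, and -1.47 for *ATP20*.

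For the effect of tryptophan under isobutanol, the difference was 1.57 for *NDE2*, 1.02 for *SDH2*, 1.21 for *COR1*, 1.55 for *CYC1*, 1.34 for *COX6*, 1.40 for *COX7*, 1.01 for *COX8*, 1.24 for *COX12*, 1.08 for *ATP3*, 1.00 for *ATP4*, 1.72 for *ATP5*, 1.18 for *ATP7*, 1.21 for *ATP15*, 1.29 for *ATP16* and 1.65 for *ATP17*, and -1.72 for *CYC7*. With library totals the value of *CYC7* was -0.98. Without WT + IB replicate 1 the calls of *SDH2* (0.82), *CYC1* (0.97), *COX8* (0.87) and *ATP3* (0.97) were lost, and without WT + IB + Trp replicate 2 those of *SDH2* (0.82), *COX8* (0.89), *ATP3* (0.91) and *ATP4* (0.92). *SDH2* also lost it without Sc12 + IB replicate 3 (0.97) and Sc12 + IB + Trp replicate 1 (0.98), *ATP3* without Sc12 + IB + Trp replicate 1 (1.00), and *ATP4* without WT + IB replicate 3 (0.99), Sc12 + IB replicate 3 (0.97), Sc12 + IB + Trp replicate 1 (0.94) and Sc12 + IB + Trp replicate 3 (0.96). *COX8* lost it also without Sc12 + IB replicate 2 (0.93) or replicate 3 (0.90) and without Sc12 + IB + Trp replicate 1 (0.96) or replicate 3 (0.98). This term and the term without tryptophan both hold the libraries of Sc12 + IB and of WT + IB.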

How the results depend on the processing

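No log2 fold change of a member that was a DEG turned its sign under the alternatives run. Leaving out the filter changed 0 of 600 calls of single members, DESeq2 changed 1, the replicate block 1, the fit of only the groups compared 7, limma 53 and library totals 92. The samples were not treated as paired by number, since in no comparison did the deviations of all 3 same-numbered pairs correlate with r over 0.1. In WT + IB + Trp against WT + IB the values of r were 0.193, 0.603 and -0.038 for replicates 1, 2 and 3. A pairing of part of the samples is therefore not excluded. With the replicate number as a block *CYC1* in WT + IB against WT was at 0.97, which left 2 DEGs higher there.

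With library totals the counts of DEGs among the members became 1 higher in WT + IB against WT and 0 higher and 20 lower in Sc12 + IB against Sc12. They were 6 higher in Sc12 + IB + Trp against Sc12 + Trp and 31 higher and 1 lower in Sc12 + IB + Trp against Sc12 + IB. Between the strains they became 1 lower in Sc12 against WT, 0 lower in Sc12 + Trp against WT + Trp and 1 higher and 30 lower in Sc12 + IB against WT + IB. In the interaction terms they became 1 higher and 27 lower for the response to isobutanol without tryptophan, and 31 higher and 0 lower for the effect of tryptophan under isobutanol. This alternative shifts all genes of Sc12 + IB together. With limma they became 6 higher in WT + IB against WT, 4 higher in WT + IB + Trp against WT + Trp, 2 higher in Sc12 + IB against Sc12, 1 lower in Sc12 + IB + Trp against Sc12 + IB, 1 lower in Sc12 against WT, 0 lower for the response to isobutanol with tryptophan and 7 higher for the effect of tryptophan under isobutanol. The last but 1 term had 2 lower in the fit of only the groups compared. Without the make-up libraries 5 were higher in Sc12 + IB + Trp against Sc12 + Trp. Without replicate 2 of WT + IB and of WT + IB + Trp, chosen after seeing the data, 4 were higher in WT + IB + Trp against WT + Trp and 3 lower for the response to isobutanol with tryptophan. The causes of the shifts with limma were not tested. By adjusted p alone limma passed 19 higher in Sc12 + IB + Trp against Sc12 + IB and 19 lower in Sc12 + IB against WT + IB, where edgeR passed 30 and 31.

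With each library left out in turn, the counts of DEGs ranged as follows. In WT + IB against WT they were 1 to 4 higher and 1 to 2 lower, and in WT + IB + Trp against WT + Trp 1 to 5 higher. In Sc12 + IB against Sc12 they were 1 to 2 higher and 2 to 5 lower, and in Sc12 + IB + Trp against Sc12 + Trp 5 to 8 higher. In WT + IB + Trp against WT + IB they were 0 to 1 higher, and in Sc12 + IB + Trp against Sc12 + IB 11 to 14 higher. In Sc12 against WT they were 2 to 3 lower, and in Sc12 + Trp against WT + Trp 0 to 4 lower. In Sc12 + IB against WT + IB they were 1 to 2 higher and 18 to 21 lower. The response to isobutanol gave 6 to 11 lower without tryptophan, and 2 to 3 higher and 1 to 3 lower with it, and the effect of tryptophan under isobutanol 11 to 17 higher. The lowest members rest on 55 to 100 fragments a library, where counting error adds most to the spread.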
